A study of Oryza sativa with 6 samples.

Results

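Rice makes many of its diterpenoid phytoalexins with enzymes encoded in a pair of gene clusters, and 10 of these genes were examined in developing seeds: 6 on chromosome 4 and 4 on chromosome 2, out of 91080 features in the deposited table. They were taken by locus identifier, and all 10 were found. RNA came from seeds at the filling stage, labelled 15 DAF, of 2 near-isogenic lines from a paddy field. NIL-gaf1, whose genotype is labelled mutant and whose titles carry the code F1287gif2, had 3 libraries. NIL-GAF1, labelled wild type and coded F1288GIF2, had 3 libraries. The labels do not say what the difference at the locus is or whether hulls were included. They also do not say whether separate plants gave the libraries of each line. The p-values below therefore set a line difference against the scatter among these libraries, which may not be that among plants.

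Phytoalexins are small antimicrobial compounds that a plant makes when attacked. In rice, class II cyclases (CPS enzymes) turn geranylgeranyl diphosphate into copalyl diphosphate, class I cyclases (KSL enzymes) turn that into a hydrocarbon skeleton, and cytochromes P450 and dehydrogenases decorate it. The chromosome 4 cluster holds genes for the synthesis of momilactones, though not necessarily all of them. Momilactones start from syn-copalyl diphosphate, are known from rice husks, and are also released by roots. The chromosome 2 cluster holds genes for phytocassanes and related compounds. These start from ent-copalyl diphosphate, the intermediate from which gibberellins are made as well.

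The chromosome 4 cluster spanned 5318070 to 5486703 in the coordinates of the table, for which the genome build is not given in the sources used here. In this order it held CPS4, the syn-copalyl diphosphate synthase (LOC_Os04g09900, OS04G0178300, 5318070 to 5326425), CYP99A3, described as a 9-beta-pimara-7,15-diene oxidase (LOC_Os04g09920, OS04G0178400, 5332365 to 5334476), MAS1 (LOC_Os04g10000, OS04G0179100, 5380120 to 5380605), MAS2 (LOC_Os04g10010, OS04G0179200, 5385722 to 5387215), KSL4, the syn-pimara-7,15-diene synthase (LOC_Os04g10060, OS04G0179700, 5428347 to 5434023), and CYP99A2 (LOC_Os04g10160, OS04G0180400, 5484865 to 5486703). MAS genes encode the dehydrogenase of the last step to momilactone A, and the table describes MAS2 by that name. The chromosome 2 cluster spanned 21690378 to 21847532. It held CYP76M8, described as oryzalexin D synthase (LOC_Os02g36070, OS02G0569400, 21690378 to 21692185), LOC_Os02g36110 (OS02G0569900, 21740304 to 21741960), KSL7, the ent-cassa-12,15-diene synthase (LOC_Os02g36140, OS02G0570400, 21765011 to 21773418), and CPS2, the ent-copalyl diphosphate synthase of this route (LOC_Os02g36210, OS02G0571100, 21844651 to 21847532). LOC_Os02g36110 was selected under the name CYP76M7, but the table gives that symbol to a feature of chromosome 6 (OS06G0599200, 23632462 to 23634139) that had 0 counts in all 6 libraries, so the locus identifier is used here. The names CPS4, MAS1, MAS2, CYP99A2 and CPS2 stand for their loci and are not symbols of the table.

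Total counts ranged from 17236796 to 25402680 per library. Levels between libraries are given as normalized CPM, that is, CPM after TMM scaling, which aligns libraries on their typical gene. The TMM factors lay from 1.157 to 1.884 for the mutant libraries and from 0.627 to 0.715 for wild type, so the choice of scaling weighs on every line difference. As a check of the tissue, all 5 starchy endosperm markers (GluA1, GluB1, globulin, GBSSI and RPBF) had counts in every library. They took 0.248%, 2.93% and 8.14% of counts in mutant libraries 1, 2 and 3, against 13.4% to 15.2% in wild type. In bulk seed RNA, fewer cells of a type and less RNA per cell cannot be told apart.

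Transcripts of 6 of the 10 genes were higher in the mutant line and none was lower: KSL4 and CYP99A2 on chromosome 4, and CPS2, KSL7, LOC_Os02g36110 and CYP76M8 on chromosome 2 (edgeR quasi-likelihood test, adjusted p under 0.05). Over all 22937 tested features 15.8% were called higher and 31.2% were called in either direction. The chromosome 2 cluster was called for 4 of 4 genes with a median log2 fold change of 1.75, and the chromosome 4 cluster for 2 of 6 with a median of 1.02. The median of all 10 was 1.43, beside 0.06 for all tested features. No gene of either cluster had a negative fold change. The number of genes called higher depended on single libraries: it was 3, 2 and 8 without mutant library 1, 2 and 3, and 4, 3 and 1 without wild-type library 1, 2 and 3. Calls over all features moved as well, from 3619 of 22937 with all libraries. In the same order of removals 3229, 2003, 4040, 2216, 2729 and 2492 features were called higher, of 23258 to 24095 tested. In that order of 6 removals the chromosome 2 cluster kept 2, 1, 4, 2, 1 and 0 calls of 4, and the chromosome 4 cluster 1, 1, 4, 2, 2 and 1 of 6. The counts of calls therefore do not set the clusters apart, and a difference between the clusters was not tested. With the replicate number as a block the calls were 4 of 4 and 5 of 6, and 3001 of 22937 tested features were called higher. Over all tested features same-numbered libraries did not deviate together, so that block is given only as an alternative. That check does not describe the 10 cluster genes, for which library 3 was the lowest of its line in both lines.

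**Figure D1:**
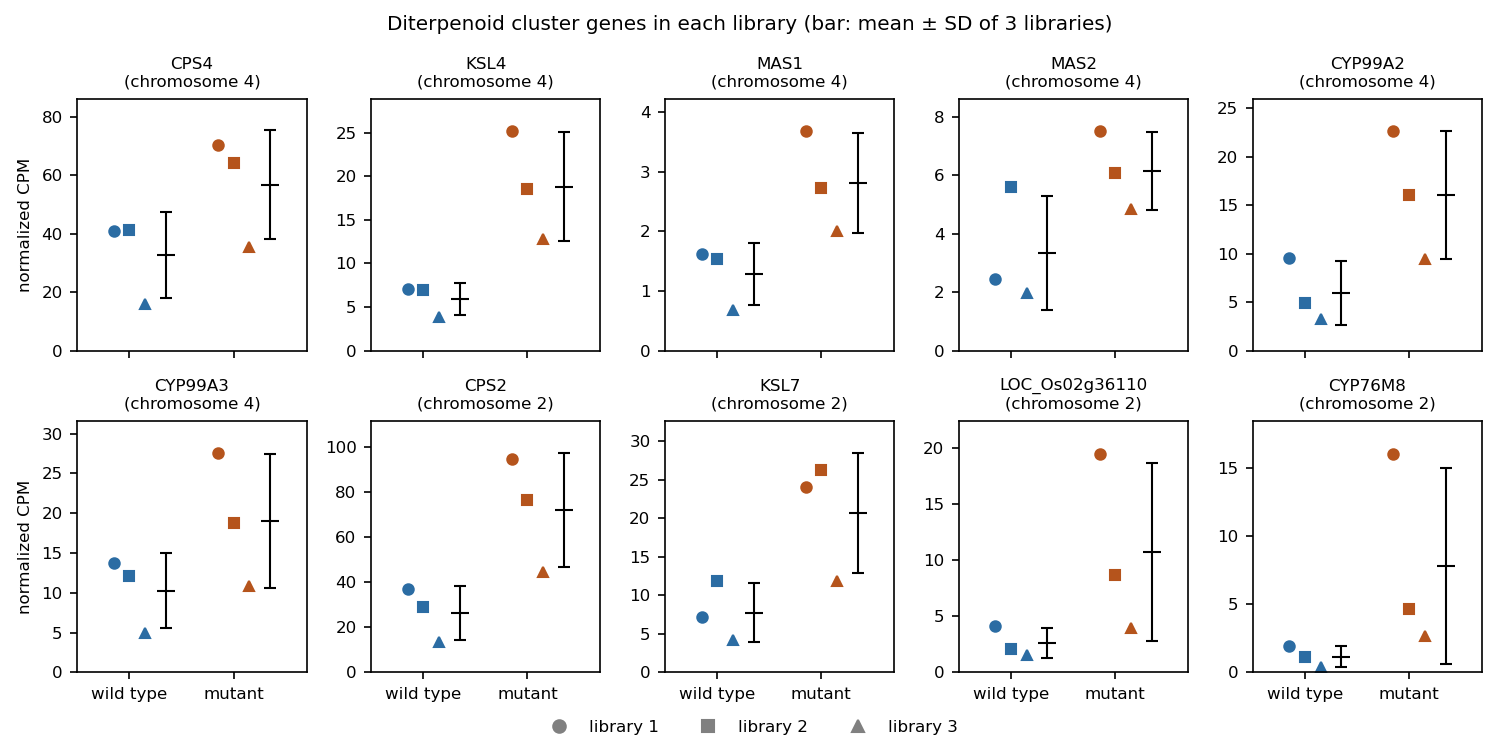
Normalized CPM (vertical axes, starting at 0) of the 10 cluster genes in each of the 3 wild-type (blue) and 3 mutant (orange) libraries, with circles, squares and triangles for libraries 1, 2 and 3 and the mean ± SD beside the points. Library 3 is the lowest of its line for all 10 genes in both lines, and the lines do not overlap for KSL4, MAS1, CPS2 and CYP76M8.

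In all lists of levels below, libraries 1, 2 and 3 of a line stand in that order. The first enzyme of the momilactone route, CPS4 (LOC_Os04g09900), was at 70.4, 64.4 and 35.6 normalized CPM in the mutant and at 41.1, 41.2 and 15.8 in wild type. Mutant library 3 lay below 2 of the wild-type libraries. The difference did not pass (log2 fold change 0.80, SE 0.38, edgeR adjusted p = 0.15), and no removal of a single library brought it under the threshold (adjusted p = 0.056 to 0.31).

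KSL4 (LOC_Os04g10060), which makes the syn-pimaradiene skeleton, was at 25.2, 18.5 and 12.8 normalized CPM in the mutant and 7.06, 6.97 and 3.83 in wild type. All mutant libraries were above all wild-type libraries. The mutant level of KSL4 was 3.17 times that of wild type (log2 fold change 1.67, SE 0.32, edgeR adjusted p = 0.0064), and it passed when any 1 library was left out (adjusted p = 0.0019 to 0.025).

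Of the P450 enzymes that oxidise pimaradiene, CYP99A2 (LOC_Os04g10160) was at 22.6, 16.0 and 9.40 normalized CPM in the mutant and 9.58, 4.94 and 3.22 in wild type. The lowest mutant library was just under the highest wild-type library. The mutant level was 2.72 times that of wild type (log2 fold change 1.44, SE 0.44, edgeR adjusted p = 0.038), but it did not pass without mutant library 1 or 2 (adjusted p = 0.074 and 0.093) or wild-type library 2 or 3 (0.12 and 0.11). Its partner CYP99A3 was at 27.6, 18.8 and 10.8 in the mutant and 13.8, 12.1 and 4.93 in wild type. Here mutant library 3 lay below 2 wild-type libraries. CYP99A3 did not pass (log2 fold change 0.90, SE 0.43, edgeR adjusted p = 0.14, and 0.045 without mutant library 3).

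The dehydrogenase genes at the end of the route had the fewest reads of the chromosome 4 cluster. The row of MAS1 covers only 486 bases and that of MAS2 1494, so their read numbers are not levels per length. Whether the MAS1 row holds the whole gene is not given in the sources used here. MAS1 was at 3.69, 2.73 and 2.01 normalized CPM in the mutant and 1.62, 1.54 and 0.684 in wild type, from 59 to 147 reads in the mutant and 10 to 20 in wild type. The lines did not overlap, yet MAS1 did not pass (log2 fold change 1.15, SE 0.41, edgeR adjusted p = 0.065, and 0.041 without mutant library 3). MAS2 was at 7.53, 6.07 and 4.84 in the mutant and 2.44, 5.59 and 1.98 in wild type. Wild-type library 2 stood above mutant library 3. MAS2 did not pass (log2 fold change 0.89, SE 0.39, edgeR adjusted p = 0.12), and without wild-type library 2 it did (1.47, adjusted p = 0.016).

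On chromosome 2, CPS2 (LOC_Os02g36210) was at 94.5, 76.4 and 44.6 normalized CPM in the mutant and at 36.8, 28.9 and 13.3 in wild type. The lines did not overlap. The mutant level was 2.73 times that of wild type (log2 fold change 1.45, SE 0.39, edgeR adjusted p = 0.025), but short of the threshold on removing mutant library 2 (adjusted p = 0.074), wild-type library 2 (0.068) or wild-type library 3 (0.053). The table holds a further row at this locus, OS02G0570900 (21842023 to 21843803), with fewer reads. It was at 25.7, 24.6 and 11.8 in the mutant and 11.5, 9.73 and 5.34 in wild type, again without overlap (log2 fold change 1.23, SE 0.36, adjusted p = 0.034). It did not pass without mutant library 1 or 2 or any 1 wild-type library (adjusted p = 0.054 to 0.11).

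KSL7, which makes the cassadiene skeleton of phytocassanes, was at 24.0, 26.2 and 11.8 normalized CPM in the mutant and 7.14, 11.9 and 4.24 in wild type. Mutant library 3 lay just under wild-type library 2. The mutant level of KSL7 was 2.67 times that of wild type (log2 fold change 1.42, SE 0.41, edgeR adjusted p = 0.032). On removing mutant library 1 or 2 (adjusted p = 0.051 and 0.11), wild-type library 1 (0.11) or wild-type library 3 (0.09) the call was lost.

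LOC_Os02g36110 and CYP76M8 had the largest fold changes of the 10 genes and the widest scatter between mutant libraries. LOC_Os02g36110 was at 19.5, 8.72 and 3.99 normalized CPM in the mutant and 4.14, 2.11 and 1.57 in wild type, with mutant library 3 just under wild-type library 1. The mutant level was 4.15 times that of wild type (log2 fold change 2.05, SE 0.60, edgeR adjusted p = 0.034). The log2 fold change was 1.30 without mutant library 1, and the call was lost without mutant library 1 or 2 (adjusted p = 0.062 and 0.065) or wild-type library 2 or 3 (0.11 each).

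CYP76M8 was at 16.0, 4.66 and 2.69 normalized CPM in the mutant and 1.95, 1.13 and 0.411 in wild type, where it rested on 24, 14 and 6 reads. No mutant library overlapped wild type. The mutant level of CYP76M8 was 6.82 times that of wild type (log2 fold change 2.77, SE 0.77, edgeR adjusted p = 0.028). On removing mutant library 1 it came to 1.69 on the log2 scale (adjusted p = 0.045), and removing wild-type library 1, 2 or 3 ended the call (0.052, 0.089 and 0.094).

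**Figure D2:**
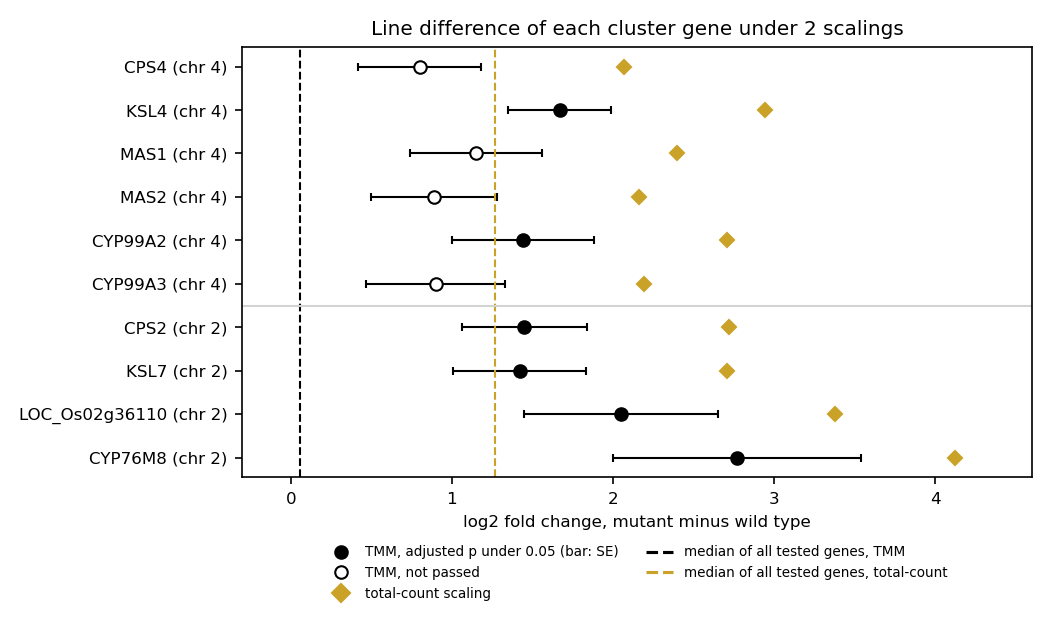
Log2 fold change, mutant minus wild type (horizontal axis), of the 10 cluster genes with TMM scaling (circles with SE bars, filled where the adjusted p is under 0.05) and with total-count scaling (diamonds). The dashed lines are the medians of all tested features, 0.06 with TMM and 1.27 with total counts, and all 10 genes lie to the right of the median of their own scaling.

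The number of calls changed with the scaling. Total-count scaling raises the median of all tested features, so a positive sign under it adds nothing to that under TMM. With total-count scaling all 10 genes were called higher, with a median log2 fold change of 2.71, where 71.9% of all tested features were called higher, 75.6% in either direction, and their median was 1.27. With TMM scaling 4 of the 10 genes had non-overlapping lines with the mutant above, beside 25.3% of tested features (49.0% with either line above). In plain CPM of all counts it was 10 of 10, beside 73.4%.

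The libraries of a line differed among themselves about as much as the lines did. The highest mutant library was 1.56-fold (MAS2) to 5.95-fold (CYP76M8) above the lowest, and in wild type this range was 1.84-fold (KSL4) to 4.75-fold (CYP76M8). Mutant library 1 was the highest and mutant library 3 the lowest for 9 of the 10 genes (30.1% of tested features), with KSL7 as the exception. Wild-type library 3 was the lowest of its line for 10 of 10, beside 32.1% of tested features. The genes share these libraries, so the counts describe the libraries and are not independent.

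Marker levels moved along with part of this scatter. The summed level of the 5 endosperm markers was 1322, 18690 and 70473 normalized CPM in mutant libraries 1, 2 and 3, lowest where the cluster genes were highest. In wild-type libraries 1, 2 and 3 it was 186841, 242052 and 216907, so that wild-type library 3, the lowest for the cluster genes, lay between the others. Of these 5 markers 2 were called lower (GBSSI and RPBF), and GluA1, GluB1 and globulin did not pass (edgeR adjusted p = 0.11 to 0.22). The 9 embryo and aleurone markers summed to 300.0, 738 and 1529 in the mutant and to 4213, 3641 and 4812 in wild type. Of these 9 markers 7 were called lower, beside 15.4% of all tested features. The 5 green pericarp markers summed to 739, 396 and 396 in the mutant and 674, 473 and 479 in wild type, and none passed. No marker of the 3 lists was at 0 in any library. The part of these markers in the cluster results was not tested.

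As a share of all reads the clusters were small. The 6 chromosome 4 genes took 0.0295%, 0.0198% and 0.00872% of counts in the mutant and 0.0054%, 0.00453% and 0.00198% in wild type. The 4 chromosome 2 genes took 0.0289%, 0.0182% and 0.00729% in the mutant and 0.00357%, 0.00276% and 0.00127% in wild type. The widest Wilson 95% interval, relative to its value, was 0.00113% to 0.00143% (wild-type library 3, chromosome 2), which covers counting error only. Within a library, the reads of the chromosome 2 genes came to 0.981, 0.918 and 0.836 of those of the chromosome 4 genes in the mutant and to 0.662, 0.610 and 0.640 in wild type. This proportion does not depend on the scaling between libraries, and the lines did not overlap in it. CPS2 and CPS4 hold much of these reads (3765 of 6134 and 2803 of 6254 in mutant library 1). The proportion is therefore not independent of the CPS4 to CPS2 ratio given below, and it leaves out the further CPS2 row.

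Per transcript length, in the authors' FPKM, CPS2 was the highest of the 10 genes, CPS4 the next and CYP99A3 after it in all 6 libraries. CYP76M8 was the lowest in all 6, as the deposited FPKM stand. CPS2 was at 151, 102 and 44.0 FPKM in the mutant and 22.4, 15.4 and 7.37 in wild type. CPS4 was at 36.7, 28 and 11.4 FPKM in the mutant and 8.14, 7.15 and 2.85 in wild type. The other 6 genes lay between CYP99A3 and CYP76M8, and their order changed from library to library. The lengths behind FPKM limit these levels: counts and FPKM imply 1173 bases for CPS2, whose row covers 2882, and 3119 bases for CYP76M8, whose row covers 1808. With 1808 bases as its length, CYP76M8 would stand at 16.6 FPKM and in place 7 of 10 in mutant library 1, and remain last in the other 5 libraries.

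Ratios of genes inside a library do not change with the scaling between libraries, and 5 were compared between the lines. The ratio of the class II cyclases, CPS4 to CPS2, was 0.242, 0.274 and 0.26 in the mutant and 0.363, 0.463 and 0.387 in wild type. It was lower in every mutant library than in any wild-type library, by 0.64 on the log2 scale (exact permutation p = 0.1, two-sided, the smallest that 3 against 3 allows, and 0.25 after adjustment over the 5 ratios). For the class I cyclases, KSL4 to KSL7, the ratio was 1.17, 0.783 and 1.2 in the mutant and 1.1, 0.65 and 1.0 in wild type. These overlapped (log2 difference 0.21, exact permutation p = 0.5, adjusted 0.625), and the sign turned without wild-type library 2.

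**Figure D3:**
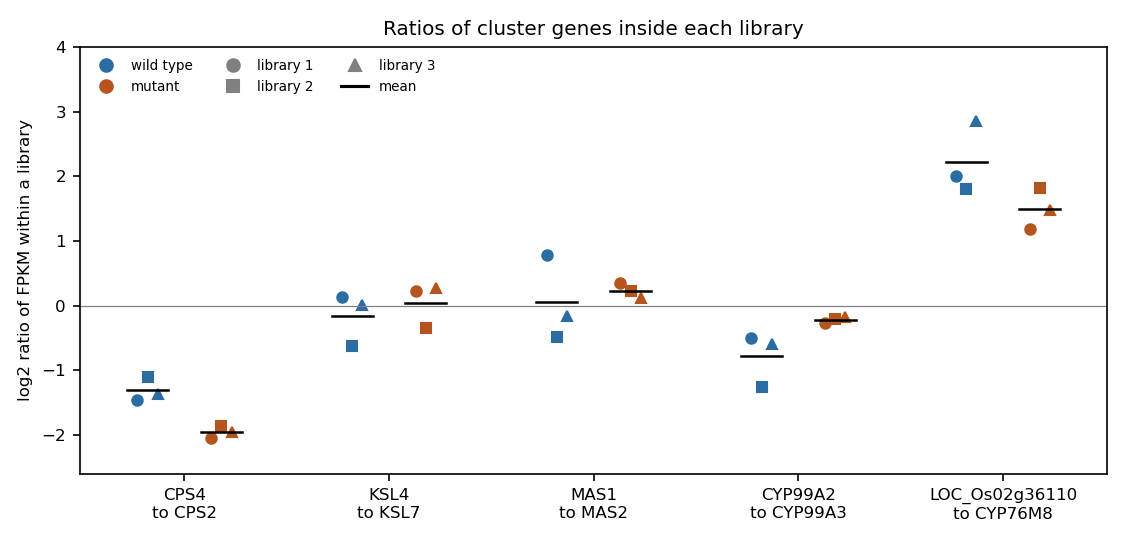
Log2 ratio of FPKM of the named genes inside each library (vertical axis), wild type in blue and mutant in orange, with circles, squares and triangles for libraries 1, 2 and 3 and the line mean as a bar. The lines separate for CPS4 to CPS2 (means -1.31 and -1.95) and for CYP99A2 to CYP99A3 (means -0.79 and -0.22) and overlap for the other ratios.

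Among close relatives in a cluster, CYP99A2 to CYP99A3 was 0.831, 0.865 and 0.886 in the mutant and 0.706, 0.416 and 0.664 in wild type. Every mutant library was higher (log2 difference 0.57, exact permutation p = 0.1, adjusted 0.25). MAS1 to MAS2 was 1.27, 1.17 and 1.08 in the mutant and 1.73, 0.716 and 0.897 in wild type (log2 difference 0.18, exact permutation p = 0.7, adjusted 0.7), and its sign turned without wild-type library 2. LOC_Os02g36110 to CYP76M8 was 2.29, 3.52 and 2.79 in the mutant and 4.0, 3.5 and 7.22 in wild type (log2 difference -0.72, exact permutation p = 0.2, adjusted 0.333). How reads were assigned between similar genes is not given in the sources used here, so the levels of such relatives are uncertain.

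Inside the cluster intervals, 4 rows other than the 10 genes had enough reads to be tested, all on chromosome 2. Those called higher were the further CPS2 row, which is not a further gene, and CYP71Z6, a further P450 of the cluster (LOC_Os02g36150, OS02G0570500, 21788170 to 21791222). Over all tested features 15.8% were called higher. Both CYP71Z6 and CYP71Z7 are counted again among the other genes of diterpenoid metabolism below. CYP71Z6 was at 11.7, 7.79 and 3.85 normalized CPM in the mutant and 3.49, 1.22 and 0.821 in wild type (log2 fold change 2.10, SE 0.58, edgeR adjusted p = 0.027). The call was lost on removing mutant library 2 (adjusted p = 0.072), wild-type library 2 (0.093) or wild-type library 3 (0.085). CYP71Z7, described as ent-cassadiene C2-hydroxylase, was at 35.7, 24.2 and 15.1 in the mutant and 13.6, 12.4 and 3.56 in wild type, without overlap and short of the threshold (1.35, SE 0.48, adjusted p = 0.066). The row without a name, OS02G0570300, had a log2 fold change of -0.59 (adjusted p = 0.081). Rows that lay over cluster genes had 0 to 7 reads in all libraries together.

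**Figure D4:**
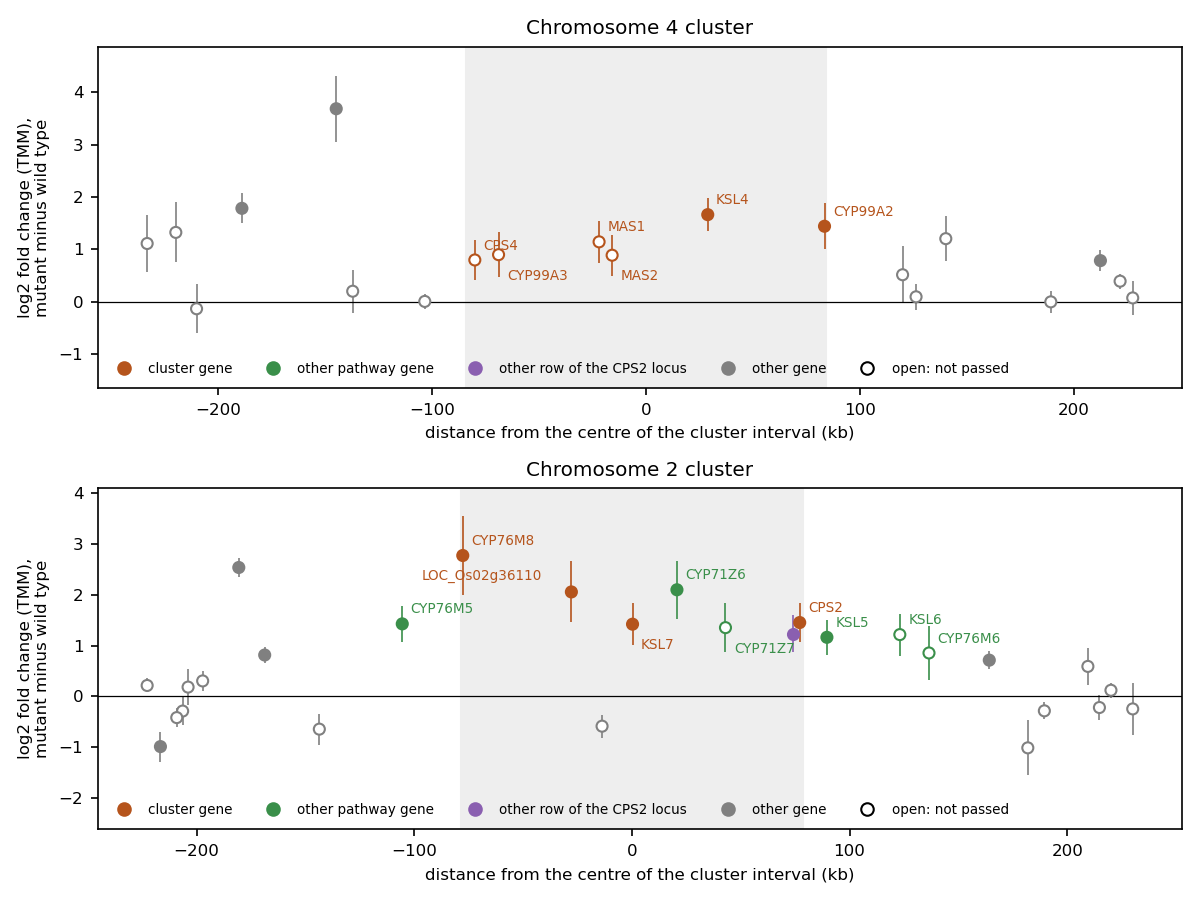
Log2 fold change with TMM scaling (vertical axis, bars are SE) of tested features by distance from the centre of each cluster interval in kb, with the interval shaded and filled symbols for adjusted p under 0.05. Cluster genes are orange, other genes of diterpenoid metabolism green, the further CPS2 row violet and all other features grey.

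Other genes of diterpenoid metabolism formed a list of 23, of which 7 were called higher, 2 lower and 14 neither, with a median log2 fold change of 0.77. Of all tested features 15.8% were called higher and 15.4% lower. Among the 9 further phytoalexin enzymes, 5 rose and 4 did not pass. KSL10, the ent-sandaracopimaradiene synthase of the oryzalexins, was at 2.61, 5.77 and 3.85 normalized CPM in the mutant and 0.649, 0.973 and 0.958 in wild type (log2 fold change 2.23, SE 0.39, edgeR adjusted p = 0.0047). KSL10 is on chromosome 12, and it passed when any 1 library was left out. CYP701A8, the ent-sandaracopimaradiene 3-hydroxylase, was at 42.6, 31.3 and 19.6 against 14.8, 10.4 and 5.82 (1.60, SE 0.37, adjusted p = 0.015, and 0.053 without wild-type library 2).

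Next to the chromosome 2 interval, CYP76M5 (log2 fold change 1.43, adjusted p = 0.018) and KSL5, the ent-pimara-8(14),15-diene synthase (1.16, adjusted p = 0.035), rose. CYP76M5 lost its call on removing wild-type library 1 or 3 (adjusted p = 0.051 and 0.063), and KSL5 passed only without mutant library 3 (0.01). KSL6 (1.21, adjusted p = 0.056), CYP76M6 (0.85, 0.25) and KSL8 on chromosome 11 (0.61, 0.24) did not pass.

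The gibberellin route, which also begins at ent-copalyl diphosphate, had other values. CPS1, the cyclase of that route, was at 3.04, 2.07 and 0.852 normalized CPM in the mutant and 2.76, 2.19 and 3.01 in wild type (log2 fold change -0.41, edgeR adjusted p = 0.52), and KS1 did not pass either (-0.47, 0.065). Both signs turned with total-count scaling (0.90 and 0.78). The kaurene oxidase KO2 had a log2 fold change of 0.66 (adjusted p = 0.052). KAO, the kaurenoic acid oxidase, fell from 2.60, 2.67 and 2.46 in wild type to 0.728, 0.927 and 1.12 in the mutant (-1.48, SE 0.31, adjusted p = 0.0095), where total-count scaling gave -0.31 (adjusted p = 0.48). Differences between this route and the clusters were not tested.

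Of the regulators, DPF, a bHLH factor that activates diterpenoid phytoalexin genes, was at 2.38, 1.75 and 1.53 normalized CPM in the mutant and 1.22, 0.567 and 0.684 in wild type. The lines did not overlap, and the difference did not pass (log2 fold change 1.2, SE 0.40, edgeR adjusted p = 0.054). TGAP1, a bZIP factor known to act on the momilactone cluster, was at 4.92, 4.26 and 3.07 in the mutant and 7.47, 7.54 and 9.30 in wild type. It was lower relative to the typical gene (-0.99, SE 0.23, adjusted p = 0.014), and total-count scaling turned the sign (0.27, adjusted p = 0.51). TGAP1 did not pass without mutant library 2 or wild-type library 3 (adjusted p = 0.054 and 0.053).

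The plastid MEP pathway supplies the precursor, and 2 of its 8 tested genes rose while 6 did not pass. With 15.8% of all tested features called higher, this count is near the background, and none of the 8 passed without mutant library 2, wild-type library 2 or wild-type library 3. LOC_Os07g09190, described as a probable 1-deoxy-D-xylulose-5-phosphate synthase, the entry enzyme, was at 36, 22.4 and 12.3 normalized CPM in the mutant and 9.01, 8.75 and 2.81 in wild type (log2 fold change 1.79, SE 0.49, edgeR adjusted p = 0.027). It passed without mutant library 1 or 3 and not without any of the other 4 libraries (adjusted p = 0.057 to 0.067). HDS was at 67.6, 56.9 and 38.1 against 36.8, 34.3 and 24.3 (0.77, SE 0.24, adjusted p = 0.043), and passed only when mutant library 3 was left out. DXS1, the other synthase of the entry step in this list, had 0.57 (adjusted p = 0.18). The remaining 5 genes lay between -0.05 (CMK) and 0.88 (MCS).

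**Figure D5:**
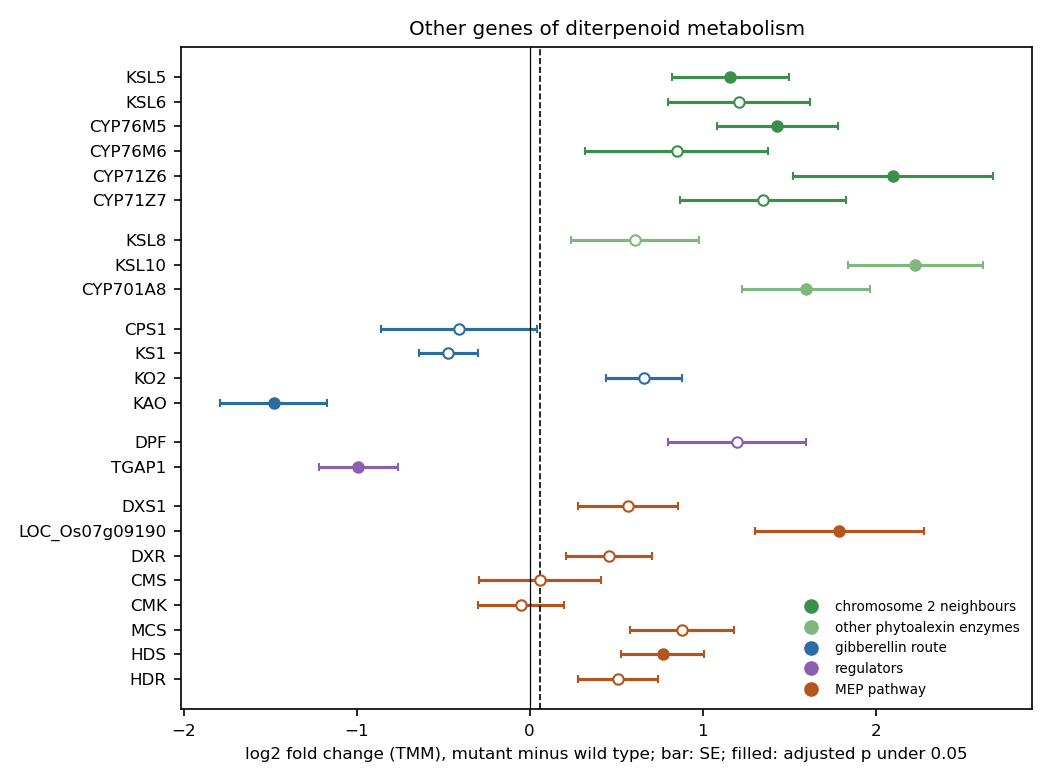
Log2 fold change with TMM scaling (horizontal axis, bars are SE, filled where the adjusted p is under 0.05) of the 23 other genes of diterpenoid metabolism by role. Phytoalexin enzymes lie right of the dashed median of all tested features (0.06), as do KO2, DPF and most MEP pathway genes. CPS1, KS1, KAO, TGAP1 and CMK lie left of it, and CMS lies at it.

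Of 10 defence genes outside the clusters, 2 rose and 8 did not pass (median log2 fold change 0.90), a count near the 15.8% of all tested features. PR1a, a pathogenesis-related protein, was at 39.7, 29.7 and 25.5 normalized CPM in the mutant and 16.3, 8.83 and 8.62 in wild type (log2 fold change 1.49, SE 0.28, edgeR adjusted p = 0.0064), and passed when any 1 library was left out. WRKY45, a transcription factor of disease resistance, was at 7.33, 3.76 and 6.10 against 1.62, 3.48 and 2.05 (1.26, SE 0.36, adjusted p = 0.031). WRKY45 did not pass without mutant library 1 or wild-type library 1 or 3 (adjusted p = 0.068 to 0.11), and was at 0.050 without mutant library 3. NH1, the rice counterpart of Arabidopsis NPR1, was at 5.92, 4.05 and 2.83 against 1.95, 1.54 and 3.28 and did not pass (0.91, adjusted p = 0.1). JIOsPR10, a PR10 protein, was at 401, 161 and 72.1 against 99.3, 102 and 79.0 and did not pass (1.17, adjusted p = 0.13), with mutant library 3 below all of wild type. PR1b, with 0 to 4 reads in wild-type libraries, had non-overlapping lines and did not pass (1.93, SE 0.81, adjusted p = 0.1). RSOsPR10, whose lines overlapped, did not pass either (0.89, adjusted p = 0.13). The counts moved with single libraries here as well: the 23 diterpenoid genes gave 5, 3 and 13 calls of higher level without mutant library 1, 2 and 3 and 6, 3 and 2 without wild-type library 1, 2 and 3. In the same order the defence genes gave 1, 2, 4, 1, 5 and 1.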

How the data were processed

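Per the labels' protocols, total RNA was extracted with a plant column kit and sequenced as standard Illumina libraries. The submitters' processing notes name Bowtie 0.12.2. For the counter, strand setting, build and gene models, nothing is stated: not given in the sources used here. Per the file headers, the deposited table holds raw read counts and FPKM per feature, both made by the authors. For the 10 genes, counts and FPKM imply the same length in all libraries. FPKM therefore served only for levels per length, ratios and an alternative fit with limma. Where a locus had several rows, the row with the most reads was used (of the 10 genes, CPS2 alone). No sequence is shown. NOMT, a listed defence locus, was not analysed here, and 62 of 63 listed loci were matched.

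Counts of all features were tested with edgeR 4.0.16 (R 4.3.3; filterByExpr, TMM, estimateDisp, glmQLFit, glmQLFTest, line as the only term), with Benjamini-Hochberg adjustment over 22937 features and a threshold of 0.05. SE is the absolute log2 fold change over the square root of F. The fit was also run on simulated counts with known fold changes, which checks the code and not the calls made here. Ratios were compared by exact permutation in scipy 1.17.1. Alternatives used DESeq2 1.42.0, limma 3.58.1 on log2(FPKM + 1), other scalings and filters, a replicate block and removal of each library. Lines were compared within 3 libraries each; a count of 0 allows up to 3 counts per library, covering counting error only.

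The 10 genes, the lists and the tests were chosen with earlier results of these data known. The rule for named genes took all 10, up to 6 genes per other list by lowest adjusted p, and pathway genes listed by role. KS1, KO2, KSL8, DXS1, HDS, MCS and CMK were named outside it, after their values were seen.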

Additional observations from a re-analysis of the deposited data

How the results depend on the processing

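The cluster genes kept a positive log2 fold change under every alternative in which they were tested (MAS1 was not, with a mean of at least 5 CPM), and KSL4 alone passed under all of them. The numbers of calls moved. Without a low-count filter 2 cluster genes were called higher (KSL4 and CPS2), and 1 (KSL4) at an adjusted p under 0.01. Total-count scaling and limma on log2(FPKM + 1) each gave 10. For these genes FPKM are counts scaled by length and total count, so these 2 settings share a scaling and are not separate checks. The median log2 fold change of all features was 0.94 with limma. No cluster gene was called lower by any tool. Over all features, total-count scaling gave 16481 higher and 863 lower of 22937, and limma on FPKM 14576 and 868 of 20527. Without a low-count filter it was 3867 and 2421 of 37995. The stricter threshold gave 1605 and 1759 of 22937, against 3619 and 3529 in the main fit. For the 23 other diterpenoid genes the calls of higher level were 20 with total counts, 19 with limma, 12 with the DESeq2 Wald test and 1 at the stricter threshold. Lower calls were 0 with total counts and limma and 1 with a mean of at least 5 CPM or the stricter threshold. For rows inside the intervals, higher calls were 1 without a filter, 1 with the rows of a locus summed and 0 at the stricter threshold. For defence genes they were 10 with total counts, 9 with limma, 4 with DESeq2 and 1 at the stricter threshold.

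With each library left out in turn, calls of higher and lower level over all features ranged from 2003 to 4040 and 2009 to 4288. Higher calls ranged from 1 to 8 for cluster genes, 2 to 13 for other diterpenoid genes (1 to 2 lower), 0 to 3 for rows inside the intervals (0 to 1 lower) and 1 to 5 for defence genes. The log2 ratio differences ranged from -0.71 to -0.54 for CPS4 to CPS2, -0.02 to 0.40 for KSL4 to KSL7, -0.09 to 0.55 for MAS1 to MAS2, 0.33 to 0.71 for CYP99A2 to CYP99A3 and -0.93 to -0.41 for LOC_Os02g36110 to CYP76M8. The negative ends of KSL4 to KSL7 (-0.02) and MAS1 to MAS2 (-0.09) came without wild-type library 2. The causes were not tested.

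Over all tested features same-numbered libraries did not deviate together (correlations 0.068, -0.043 and -0.025 for numbers 1, 2 and 3), so the numbers are not taken as pairs. Not every library correlated best with its own number. For the 10 cluster genes library 3 was the lowest in both lines, and whether these genes deviate together by number was not tested. With the replicate number as a block, 9 cluster genes (all but MAS2) and 11 other diterpenoid genes were called higher. Over all features 3001 of 22937 were called higher with this block.

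Depth limits the low genes most: CYP76M8 had 6 to 24 reads and MAS1 10 to 20 in wild-type libraries.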

Other observations

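The features around the clusters were looked at after the cluster values had been seen, taking the nearest 10 tested features on either side and leaving out the genes of diterpenoid metabolism. Around the chromosome 4 cluster 4 of 20 were called higher and 2 lower, with a median log2 fold change of 0.15. Around the chromosome 2 cluster the median was 0.04, and of 20 features 4 were called higher and 1 lower. Of all tested features 15.8% were called higher and 15.4% lower, so the counts of higher calls are near the background. The closest named neighbour of the chromosome 4 cluster, the actin-related protein gene ARP9 at 11562 bp before CPS4, had a log2 fold change of 0.01 (edgeR adjusted p = 0.98). LOC_Os04g09800, at 57439 bp before the cluster and without a description in the table, had a larger fold change than any of the 10 cluster genes (log2 fold change 3.69, edgeR adjusted p = 0.0043). LOC_Os02g35940, at 101361 bp before the chromosome 2 cluster, stood at 2.53 (adjusted p = 2e-04). These 3 features were picked after their values were seen.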
